A study of Mus musculus with 4 samples.

Results

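Neuropeptide precursors and granins were followed in primary astrocytes through 10 genes, *Penk*, *Tac1*, *Sst*, *Npy*, *Vgf*, *Scg2*, *Adcyap1*, *Crh*, *Nts* and *Vip*, out of 22180 genes that have a probe set of their own on the array. The genes were chosen by name with earlier results of these same arrays known, and each gene's probe set was selected on its mean signal, so the levels and differences given here are a description. Each of the 10 genes has 1 probe set that names no other gene. The cells were glia from the cerebral cortex of newborn pups (postnatal day 1 to 3) on a C57BL/6J background, either WT or systemically lacking CRTC3 (CRTC3 KO, abbreviated KO), grown in medium with GM-CSF until microglia were shaken off and the attached cells remained. WT astrocytes received vehicle (0.1% DMSO) or 25 µM forskolin (FSK) for 2 h, and KO astrocytes the same pair of treatments. One condition corresponds to 1 array, 4 arrays in all. How many pups a culture came from, their sex and the duration of the vehicle are unstated in the labels and the methods. Differences between conditions thus rest on single arrays, and none of them was tested.

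Neuropeptides are made as large precursors that enter the secretory pathway, are cut at pairs of basic residues by prohormone convertases, trimmed by carboxypeptidases and often amidated, and they then act on G protein-coupled receptors of neighbouring cells. Granins are acidic proteins of the same secretory granules and are themselves cut into peptides. Many of these genes are classical targets of cAMP: FSK activates adenylyl cyclase, protein kinase A phosphorylates CREB, and the dephosphorylated CRTC coactivators join CREB on the cAMP response element (CRE) of the promoter. Precursors such as *Penk* are known to be transcribed in cultured astrocytes as well as in neurons. The comparison asks which precursor and granin genes carry a cAMP response in astrocytes and whether that response is present without CRTC3.

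The CRE was sought in the stretch from 250 bases before to 50 bases after the annotated start site, which the RefSeq table of GRCm38.p6 holds for 7 of the 10 genes, *Tac1*, *Sst*, *Npy*, *Scg2*, *Adcyap1* (with 2 start sites), *Nts* and *Vip*. *Penk*, *Vgf* and *Crh* are named only. On both strands, 4 strings of letters were searched: the full palindromic CRE, TGACGTCA, the short CRE site CGTCA that forms either arm of it, the sequence TGCGTCA, which is the CRE-2 element of the human proenkephalin enhancer, and the TATA box TATAAA. The short site is contained in both longer elements. Of all 32851 promoter windows of this length, 1.79% held the full CRE, 20.8% the short site, 2.12% TGCGTCA and 13.6% TATAAA. The sequences below show the promoter of *Tac1*, one of the pair of genes with a large FSK response in WT, and beside it promoters with a full or short CRE whose genes differed far less. Capitals mark the searched motifs, and every sequence runs 5′ to 3′ on the strand of its gene.
Tac1 (chr6:7554811-7555110, plus strand, base -250 to base 50): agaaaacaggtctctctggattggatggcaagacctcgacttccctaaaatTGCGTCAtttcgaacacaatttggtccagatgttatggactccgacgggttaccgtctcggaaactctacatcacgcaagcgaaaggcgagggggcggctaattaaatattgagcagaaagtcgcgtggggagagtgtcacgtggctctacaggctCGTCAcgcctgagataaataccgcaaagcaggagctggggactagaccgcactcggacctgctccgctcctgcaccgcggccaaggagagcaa
Scg2 (chr1:79439977-79440126, minus strand, base -100 to base 50): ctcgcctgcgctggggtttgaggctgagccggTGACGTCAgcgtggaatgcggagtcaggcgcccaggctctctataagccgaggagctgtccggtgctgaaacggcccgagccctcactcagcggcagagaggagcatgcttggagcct
Sst (chr16:23890795-23890944, minus strand, base -100 to base 50): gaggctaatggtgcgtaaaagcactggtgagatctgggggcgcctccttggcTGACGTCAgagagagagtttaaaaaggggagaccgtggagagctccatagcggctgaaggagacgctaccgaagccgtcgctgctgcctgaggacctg
Vip (chr10:5639118-5639267, plus strand, base -100 to base 50): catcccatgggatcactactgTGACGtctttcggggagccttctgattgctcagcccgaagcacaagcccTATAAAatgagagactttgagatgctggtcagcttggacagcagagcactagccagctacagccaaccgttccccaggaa

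Full CREs stood in the windows of *Scg2*, from base -68 to -61 relative to the start site, and of *Sst*, from base -48 to -41. The window of *Tac1* held no full CRE but TGCGTCA at base -199 to -193 and a further short site at base -43 to -39. *Vip* had 1 short site at base -79 to -75 on the opposite strand, where the printed strand reads TGACG, upstream of a TATA box at base -30 to -25. Further TATAAA strings of the *Vip* window lay upstream of the short site, at base -157 to -152 and -147 to -142, outside the printed stretch. The windows of the 2 *Adcyap1* start sites overlap and share 1 short site, at base -91 to -87 from the first start site and at base -242 to -238 from the second, *Nts* had 1 at base -166 to -162, and the window of *Npy* held none of the 4 strings. The window of the second *Adcyap1* start site also held TATAAA, at base -58 to -53. A match is a description of these letters and not evidence of a bound factor.

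**Figure D1:**
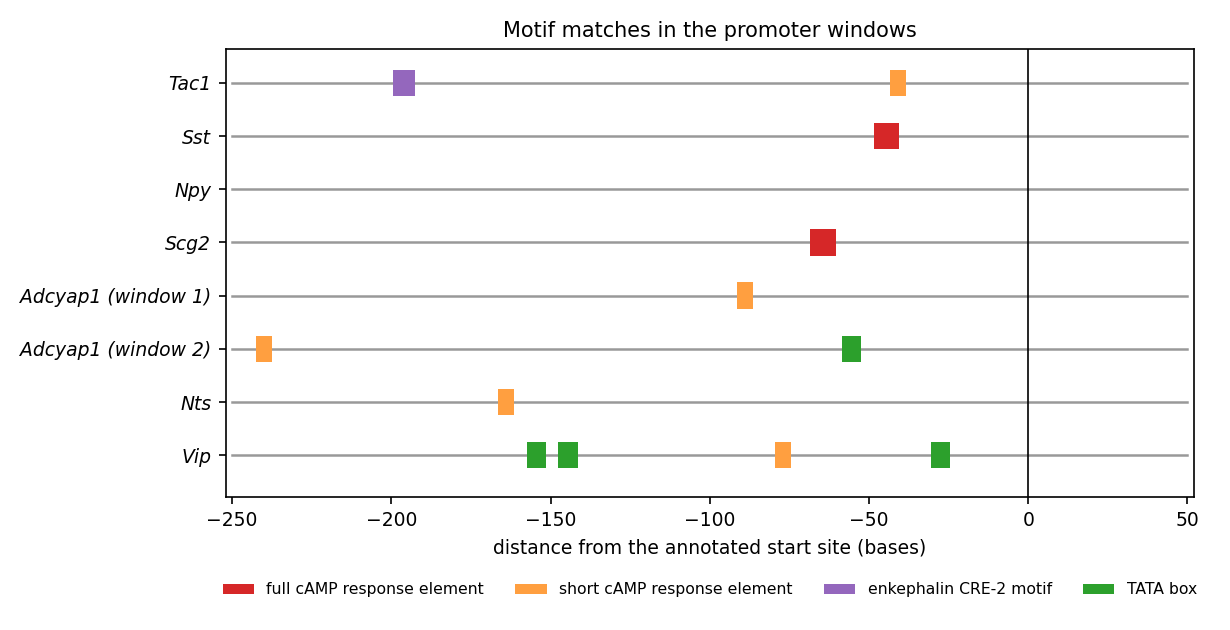
Matches of 4 motifs (coloured boxes) along the promoter windows of 7 of the 10 genes, with the distance from the annotated start site in bases on the horizontal axis and short sites inside a longer element not drawn. Full CREs appear only for *Sst* and *Scg2*, and *Tac1* has a TGCGTCA element near base -199 and a short site near base -43.

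The values are gene-level signals normalized by RMA and given on the log2 scale, so a difference of 1 is a 2-fold difference. The median over all probe sets with 1 gene was 5.81, and a gene was taken as dim where it stayed below that median on all 4 arrays. The array medians over these probe sets lay between 5.79 and 5.82. *Crtc3* itself had a signal of 7.75 and 8.14 in WT (vehicle, then FSK), and its signals of 4.92 and 5.49 in KO were both below the median. Of 15 astrocyte markers 13 reached the median (*Gfap* lay at 10.97 to 11.49) and 2 were dim, where 45.9% of all genes were dim. On the vehicle arrays 14 of 15 had a higher signal in KO, where 51.7% of all genes did. Their median difference was 0.46, against 0.0085 over all genes. The summed linear signal of the 14 fibroblast and mural cell markers was 19314 and 19679 on the WT arrays against 10384 and 9068 on the KO arrays. All 13 microglia and macrophage markers measured reached the median, with sums between 10624 and 11664 on the 4 arrays. In such bulk RNA, fewer cells of a type and less RNA per cell cannot be told apart.

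Of the 10 genes, 3 lay above the median on all 4 arrays, 3 on some arrays and 4 on none. The 4 dim genes were *Adcyap1*, *Crh*, *Nts* and *Vip*, and 45.9% of all genes were dim by the same rule. *Npy*, *Vgf* and *Scg2* were above the median throughout, whereas *Penk*, *Tac1* and *Sst* passed it on only some arrays. By highest signal, the gene just above the line was *Sst*, at 5.89, and the gene just below it was *Crh*, at 5.42.

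**Figure D2:**
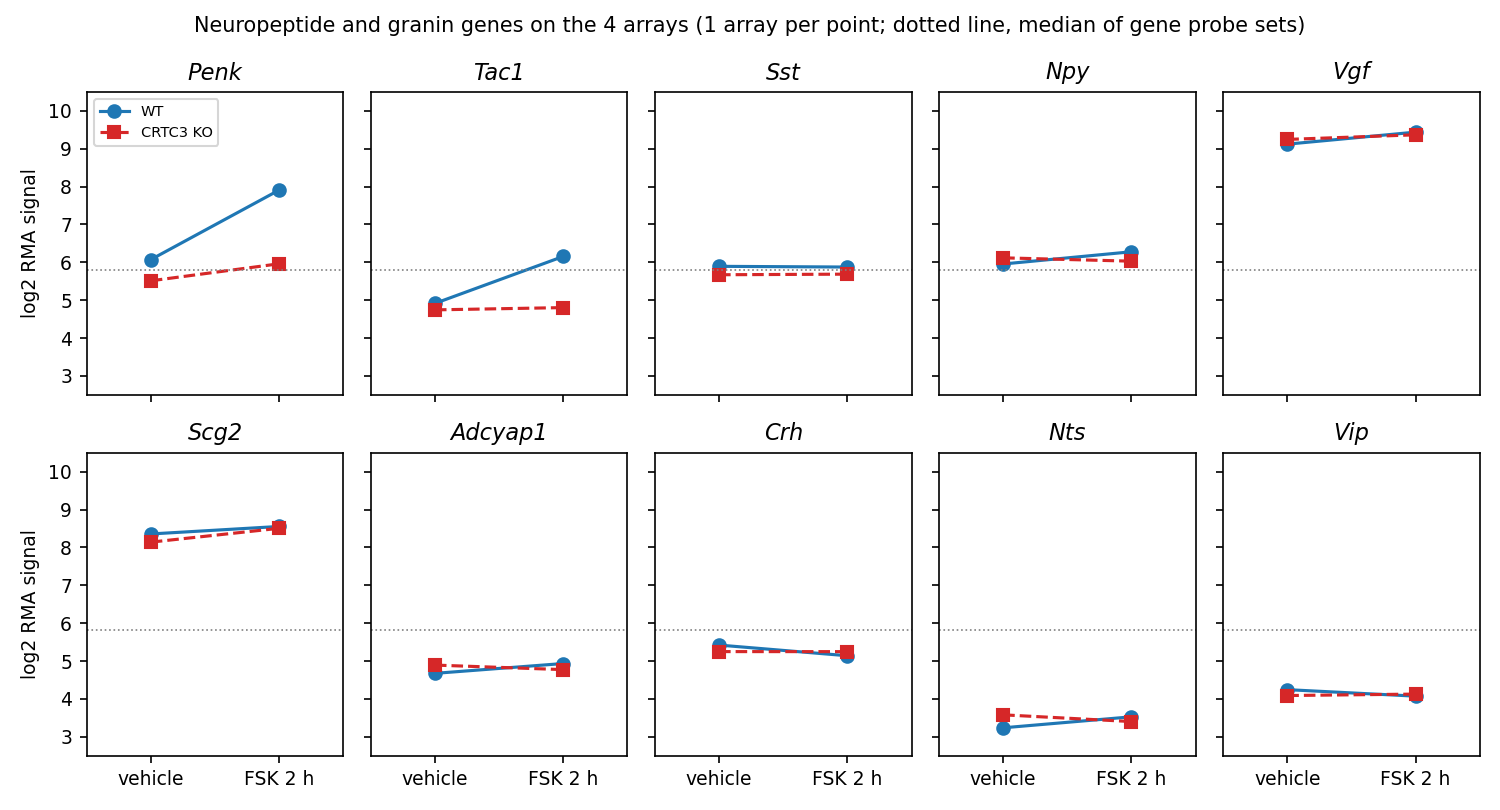
Log2 RMA signal (vertical axis) of the 10 genes with vehicle and after 2 h of FSK, for WT (circles, solid line) and KO (squares, dashed line), 1 array per point, with the median of gene probe sets (5.81) as a dotted line. The WT line climbs for *Penk* (6.07 to 7.91) and *Tac1* (4.92 to 6.16), the KO line climbs less for *Penk* (5.51 to 5.96) and hardly for *Tac1* (4.74 to 4.80), and the other 8 genes span at most 0.41 over the 4 arrays.

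*Penk*, the precursor of Met- and Leu-enkephalin, ligands of the opioid receptors, had the widest range of the 10 genes. Its log2 signal was 6.07 with vehicle and 7.91 with FSK in WT, and 5.51 with vehicle and 5.96 with FSK in KO. The WT FSK array stood far above the other 3, and the KO FSK array was slightly below the WT vehicle array. The FSK response was thus 1.84 in WT (3.57-fold) and 0.45 in KO (1.37-fold), a difference between the genotypes of 1.39. A response at least as high was found in 0.0135% of all genes in WT and in 1.4% in KO. Already without FSK the *Penk* signal was lower in KO, with a log2 difference from WT of -0.56, and with FSK the difference was -1.95, so that the FSK-treated KO cells had 0.259 times the signal of the WT cells. The KO vehicle signal was below the median. With signals below the median raised to it, the KO response was 0.15 and the vehicle difference -0.26.

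*Tac1*, which encodes the precursor of substance P and neurokinin A, was above the median on a single array. Its signal was 4.92 with vehicle and 6.16 with FSK in WT, against 4.74 and 4.80 in KO. Only the WT FSK array stood out, and the other 3 lay within 0.17 of each other. The response was 1.24 in WT (2.36-fold) and 0.06 in KO (1.04-fold), and 33.4% of all genes had a response as high as that in KO. With vehicle the genotypes differed by -0.17 for *Tac1*, and with FSK by -1.35. Since 3 of its 4 signals were below the median, where RMA compresses differences and no detection call was available, the size of this response depends on dim signals: with signals below the median raised to it, the WT response was 0.35.

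Among the other neuropeptide genes, no value reached 2-fold in any comparison. As only 0.0271% to 0.825% of all genes did, depending on comparison and direction, nothing is read from that count. *Npy*, the precursor of neuropeptide Y, had signals of 5.96 and 6.28 in WT against 6.12 and 6.03 in KO, with vehicle and FSK. The WT FSK array was the highest of the 4, with a response of 0.32 in WT and -0.09 in KO. *Sst*, which encodes somatostatin and carries the full CRE shown above, stayed between 5.67 and 5.89. Both *Sst* responses were close to 0, -0.02 in WT and 0.02 in KO, and both KO arrays were slightly below both WT arrays, with differences of -0.22 with vehicle and -0.19 with FSK.

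The 4 dim genes moved little on any array. *Adcyap1*, the precursor of the adenylyl cyclase activating peptide PACAP, had signals of 4.67 and 4.93 in WT against 4.89 and 4.77 in KO. *Nts*, the neurotensin gene, had the signals 3.24 and 3.53 in WT and 3.58 and 3.40 in KO. Both were higher with FSK in WT, with responses of 0.26 and 0.29, and lower with FSK in KO, with responses of -0.12 and -0.18. *Crh*, which encodes the corticotropin-releasing hormone, was at 5.42 and 5.14 in WT and at 5.25 on both KO arrays, a response of -0.28 in WT. *Vip*, the precursor of vasoactive intestinal peptide, lay at 4.24 and 4.07 in WT and 4.09 and 4.13 in KO, with responses of -0.17 and 0.04. No detection call was available, so whether these 4 genes were expressed at all was not tested.

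The granin genes were well above the median in both genotypes. *Vgf*, whose product is cut into several secreted peptides and which nerve growth factor induces in neurons, had signals of 9.12 and 9.44 in WT against 9.25 and 9.37 in KO. FSK arrays were higher than vehicle arrays in both genotypes, with responses of 0.32 in WT and 0.12 in KO. *Scg2*, which encodes secretogranin II, the precursor of secretoneurin, was at 8.36 and 8.56 in WT and at 8.14 and 8.51 in KO. Its response was 0.20 in WT and 0.37 in KO, so among the 10 genes *Scg2* was the single one with responses above 0 in both genotypes and the higher one in KO. Only 2.82% of all genes had a response in KO as high as that of *Scg2*.

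Counted together, 2 of the 10 genes, *Penk* and *Tac1*, were at least 2-fold higher with FSK in WT, against 0.122% of all genes, and 0 of 10 in KO, against 0.0271%. The same pair had a WT response at least 1 above the KO response, which held for 0.379% of all genes. As the genes were chosen with these values known, nothing is read from the counts. In WT 7 of 10 were higher with FSK (49.6% of all genes) with a median response of 0.28, and in KO 6 of 10 (48.2% of all genes) with a median of 0.03, where the medians over all genes were -0.0011 and -0.0065. The KO count was 7 of 10 with median centring of the arrays, since the response of *Crh* lay at -0.0012. Without *Penk* and *Tac1* the medians of the other 8 genes were 0.23 and 0.01. The genes *Npy*, *Adcyap1* and *Nts* were higher with FSK in WT and lower in KO, 3 of 10 where 26.0% of all genes did so. Counting either order of signs, 5 of 10 had opposite responses, where 50.5% of all genes did.

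As a measure of disagreement within an array pair, the responses of different probe sets of a gene differed with an SD of 0.288 in WT and of 0.264 in KO over the 1082 genes that have several. This SD is no replicate error, but it gives a scale for values of this size. In WT 5 of the 10 genes lay beyond it, *Penk* and *Tac1* by a wide margin and *Npy*, *Vgf* and *Nts* narrowly. A WT response at least as high as that of *Nts* (0.29) was found in 8.16% of all genes. One at least as low as that of *Crh* (-0.28), just inside the SD, was found in 7.08%. Only *Penk* and *Scg2* lay beyond the SD in KO. With signals below the median raised to it, the WT response of the dim gene *Nts* was 0. The KO response of *Penk* was then 0.15, inside the SD. Nothing is read from these counts.

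**Figure D3:**
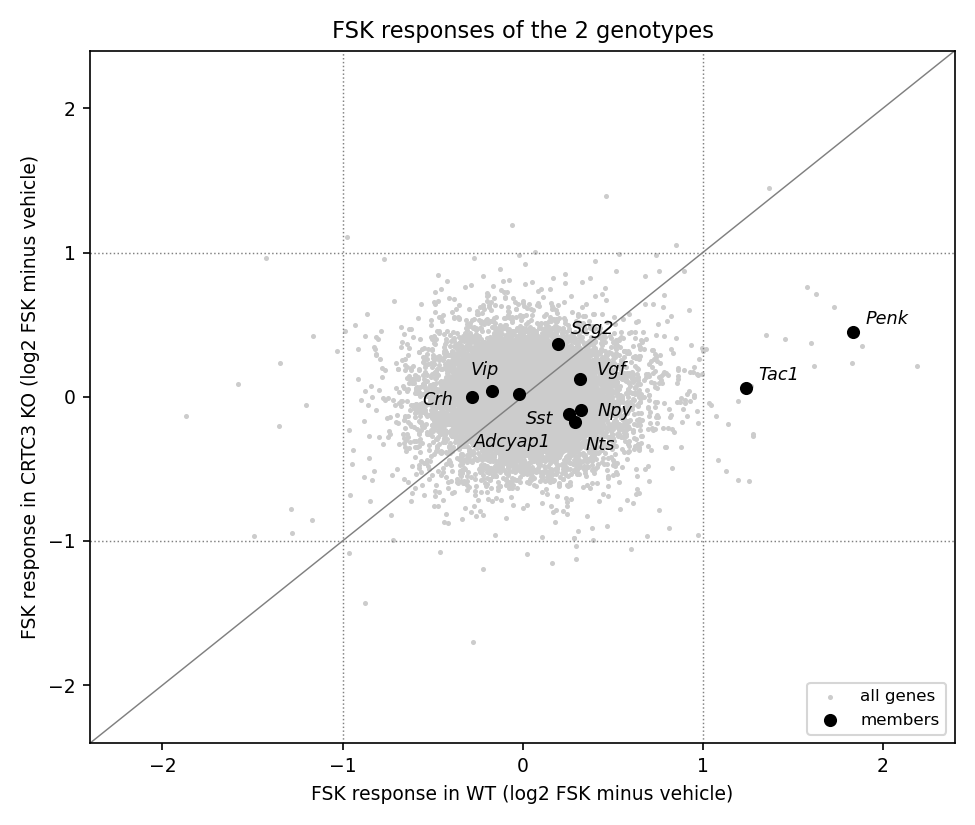
FSK response (log2 FSK minus log2 vehicle) in WT on the horizontal axis and in KO on the vertical axis for all 22180 genes (grey) and the 10 neuropeptide and granin genes (black), with dotted lines at 2-fold and a solid line of equal responses. *Penk* (1.84 and 0.45) and *Tac1* (1.24 and 0.06) lie to the right of the cloud, the other 8 genes lie inside it, and *Scg2* (0.20 and 0.37) is above the line of equal responses.

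Between the genotypes, no gene of the 10 was 2-fold lower in KO with vehicle (0.478% of all genes were), and *Penk* and *Tac1* were with FSK (0.825% of all genes). With vehicle 6 of the 10 were lower in KO, with a median of -0.16, where 48.2% of all genes were lower and their median was 0.0085. With FSK 8 of the 10 were lower, with a median of -0.14, where 50% of all genes were lower and their median was -0.00012. These differences share arrays with the FSK responses and are the same values seen from the other side. The fibroblast and mural cell markers differed in the same direction as *Penk*: 13 of 14 were lower in KO with vehicle and 13 of 14 with FSK, with medians of -0.73 and -0.78, and *Col1a1*, a collagen gene of fibroblasts, differed by -1.66 and -1.98. Their own FSK responses were small, with medians of 0.01 in WT and -0.12 in KO. The part of the cell mix in the lower *Penk* signal was not tested.

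**Figure D4:**
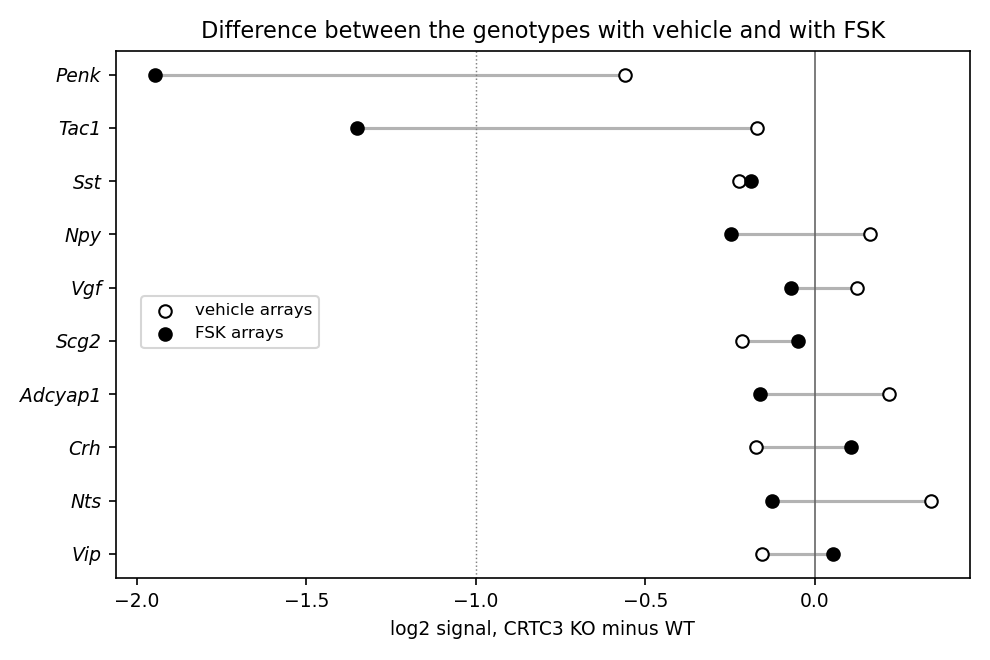
Difference in log2 signal between KO and WT (horizontal axis) for each of the 10 genes on the vehicle arrays (open circles) and on the FSK arrays (filled circles), joined by a line, with a dotted line at 2-fold lower. *Penk* (-0.56 and -1.95) and *Tac1* (-0.17 and -1.35) separate with FSK, and the other 8 genes stay between -0.25 and 0.34 on both.

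Neurons and interneurons are the best known source of these peptides, and their markers were therefore examined on the same arrays. Of 17 neuron markers measured, 8 reached the median and 9 were dim, where 45.9% of all genes were dim, so nothing is read from that count. *Stmn2*, *Map2* and *Dlx2* had signals of at least 7.84, while *Snap25*, *Syt1*, *Gad2*, *Slc17a6*, *Slc17a7*, *Slc32a1* and 3 others were below the median on all arrays. The summed linear signal of the neuron markers was 2240 and 2223 in WT and 2408 and 2384 in KO, with vehicle and FSK. This sum is carried by bright markers such as *Stmn2* (log2 signal 9.61 in WT with vehicle). Dim ones such as *Nefl* (3.58) hardly count in it, so it cannot show a change in them. Of the 17 markers, 7 had their highest signal on the WT FSK array, as *Penk* and *Tac1* did, where 28% of all genes did so. These were the neurofilament genes *Nefl* (a WT response of 1.28) and *Nefm* (0.45), *Snap25* (0.33), *Tubb3* (0.27), *Gad2* (0.21), *Lhx6* (0.13) and *Dlx2* (0.003), and *Nefl*, *Nefm*, *Snap25* and *Gad2* were dim. The part of neurons in the *Penk* and *Tac1* signals was not tested. The median response of all 17 neuron markers was 0 in WT and -0.02 in KO. Markers of chromaffin and endocrine cells, which store the same peptides, summed to between 263 and 278. Of 6 measured, *Insm1* and *Syp* reached the median and 4 were dim, where 45.9% of all genes were dim.

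The genes whose profile over the 4 arrays was most like that of *Penk* were sought among the 11993 genes that reached the median, by the Euclidean distance between mean-centred log2 signals. They were *Thbd* (distance 0.16), *Il6* (0.17), *Vdr* (0.20), *Rasd1* (0.29) and *Has1* (0.29). *Thbd*, which encodes the anticoagulant receptor thrombomodulin, had signals of 7.08 and 8.81 in WT against 6.30 and 6.92 in KO. Nearest to *Tac1* were the chemokine gene *Cxcl1* (0.04), *Apold1* (0.06), *Tcim* (0.20), *Tnfaip6* (0.22) and *Ugdh* (0.24). *Cxcl1* had signals of 5.64 and 6.91 in WT against 5.44 and 5.51 in KO, so that the same single array was high. *Ugdh*, which encodes the enzyme that makes UDP-glucuronate, was bright throughout, at 9.60 and 10.57 in WT and 9.38 and 9.54 in KO. With 4 arrays, likeness of profile says only that the same arrays were high.

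Of 26 other CREB target genes measured, 19 had a response above 0 in WT and 20 in KO, where 49.6% and 48.2% of all genes did. The medians were 0.25 and 0.20. None reached 2-fold. As only 0.122% of all genes were at least 2-fold higher in WT and 0.0271% in KO, nothing is read from that count. *Klf4*, a transcription factor gene, had the highest WT response of the list, 0.83, against 0.30 in KO. The WT response of *Penk* (1.84) was above it, and so was that of *Tac1* as measured (1.24), but not with signals below the median raised to it (0.35). The early response genes *Fos* (0.63 and 0.45) and *Nr4a2* (0.63 and 0.52) and *Crem*, which yields the repressor ICER (0.46 and 0.31), had responses in both genotypes, and that of *Sik1*, the kinase that inactivates CRTCs, was 0.51 in WT and 0.55 in KO. *Nfil3* (0.74 and 0.28) and *Btg2* (0.65 and 0.28) had a lower response in KO. Of the 26 genes, 18 had a higher response in WT than in KO and 8 a lower one, where 51.4% of all genes had a higher one.

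Precursor processing was followed through the enzymes and through *Scg5* and *Pcsk1n*, which encode binding partners of prohormone convertases and are also counted among the granins. Of these 14 genes measured, 13 reached the median and 1 was dim, where 45.9% of all genes were dim. None was 2-fold different in any comparison. As only 0.0271% to 0.825% of all genes were, depending on comparison and direction, nothing is read from that count. The median FSK response was 0.10 in WT and -0.01 in KO. *Cpe*, which encodes the carboxypeptidase that trims the cut peptides, had signals of 11.63 and 11.59 in WT against 11.77 and 11.93 in KO. *Pam*, the amidating enzyme that substance P, neuropeptide Y and vasoactive intestinal peptide require, lay between 9.52 and 9.74, *Furin*, a convertase of the Golgi, between 8.76 and 8.96, and *Ctsl*, a cysteine protease that also cuts proenkephalin, between 10.53 and 10.66. By contrast *Pcsk1*, the prohormone convertase of the regulated secretory granule, was dim, at 4.16 and 4.44 in WT and 4.13 and 4.11 in KO. Its partner *Pcsk2* is not analysed here.

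Of 5 other granin and granule genes, 4 reached the median and 1 was dim, where 45.9% of all genes were dim. With vehicle 4 were higher in KO and with FSK 3, where 51.7% and 49.8% of all genes were higher. *Chgb*, which encodes chromogranin B, had signals of 7.11 and 7.48 in WT against 6.58 and 6.71 in KO, so both KO arrays were below both WT arrays, with differences of -0.53 and -0.77. The opposite order held for *Scg3*, the gene of secretogranin III, a membrane-binding granin, at 9.72 and 9.58 in WT and 10.13 and 10.32 in KO. *Chga*, chromogranin A, was dim (5.11 to 5.62), and none of the 5 reached 2-fold, where 0.0271% to 0.825% of all genes did, depending on comparison and direction. *Scg5* and *Pcsk1n* were also higher in KO, with differences of 0.40 and 0.46 with vehicle and of 0.30 and 0.24 with FSK, so that *Chgb* was the exception among the 4 genes that reached the median. With vehicle the astrocyte markers had a median difference of 0.46 and the fibroblast and mural cell markers one of -0.73. The part of the cell mix in these granin differences was not tested.

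On the receiving side, 9 of 26 receptor and binding protein genes reached the median and 17 were dim, where 45.9% of all genes were dim. The genes of all classical opioid receptors were dim: *Oprm1* lay at 4.02 to 4.31, *Oprd1* at 5.10 to 5.44 and *Oprk1* at 4.32 to 4.74. *Ackr3*, an atypical chemokine receptor that scavenges opioid peptides, was at 6.42 and 6.77 in WT and 6.55 and 6.61 in KO. *Tacr1*, the substance P receptor gene, had signals of 6.69 and 6.99 in WT against 6.20 and 6.40 in KO, with genotype differences of -0.49 with vehicle and -0.59 with FSK and FSK responses of 0.30 and 0.20. Receptors of peptides whose own genes were dim were also found above the median, among them *Ntsr2*, a neurotensin receptor known from astrocytes (7.18 to 7.48), *Adcyap1r1*, the PACAP receptor (6.08 to 6.48), and *Sort1*, sortilin, which binds neurotensin (9.30 to 9.69). No receptor gene reached 2-fold in any comparison, and the median FSK response was -0.01 in WT and 0.04 in KO. Between 0.0271% and 0.825% of all genes reached 2-fold, depending on comparison and direction, so nothing is read from that count. *Npy1r*, a neuropeptide Y receptor that stayed below the median, differed the most between the genotypes with FSK, by -0.83.

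Peptidases that end the action of these peptides mostly reached the median, 11 of 13 measured, and 2 were dim, where 45.9% of all genes were dim. *Mme*, neprilysin, which degrades enkephalins and substance P, stayed between 7.49 and 7.56 on the 4 arrays. *Ece1*, an endothelin-converting enzyme that also cuts substance P, had the largest difference of the list: its signal was 7.63 and 8.21 in WT and 7.47 and 7.44 in KO, with responses of 0.58 in WT and -0.04 in KO. As for *Tac1*, the WT FSK array was the highest, here by less than 2-fold.

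**Figure D5:**
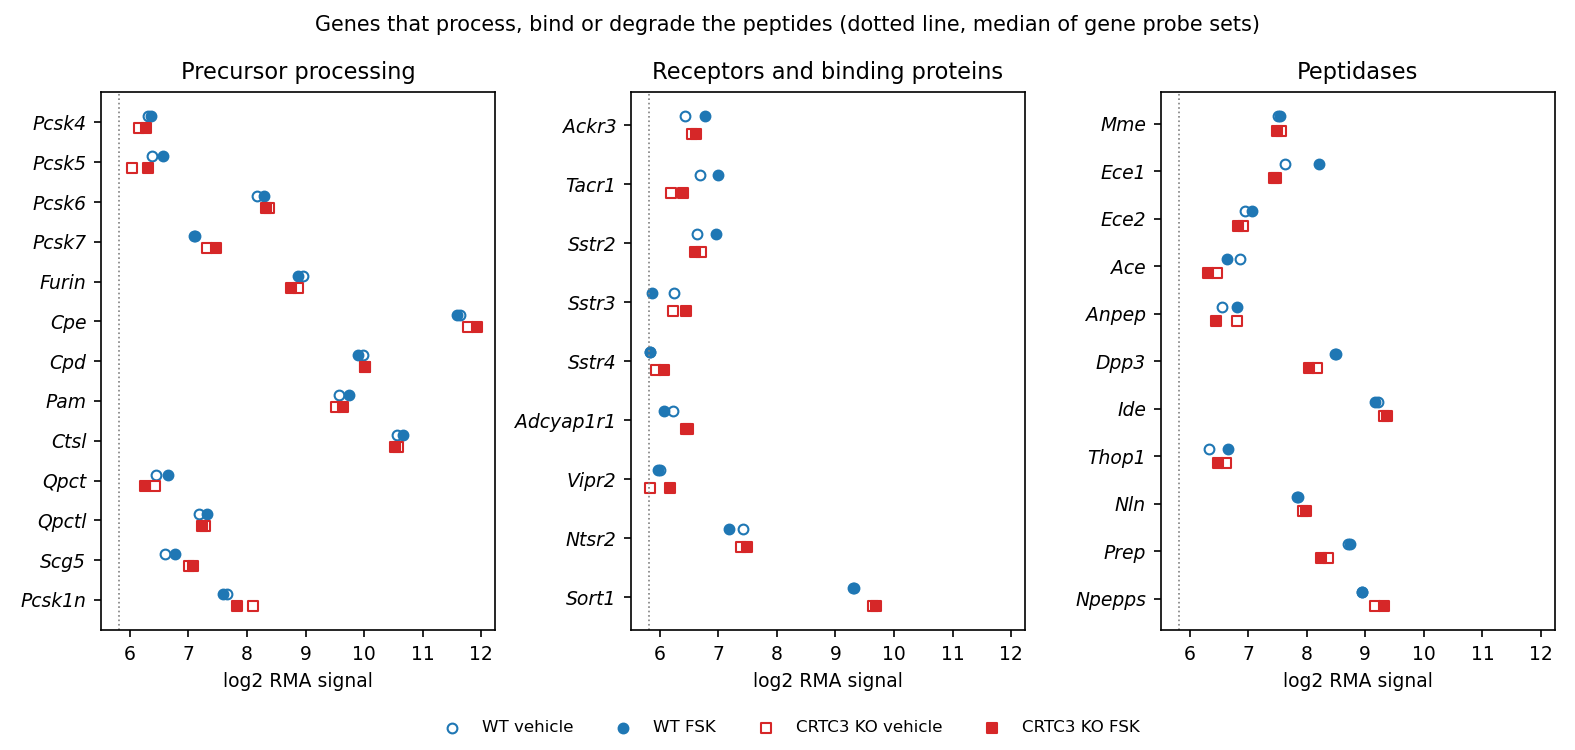
Log2 RMA signal (horizontal axis) of the genes for precursor processing, for receptors and binding proteins and for peptidases that reached the median signal on an array, with WT as circles, KO as squares, vehicle open and FSK filled, 1 array per point. Most genes keep their 4 points close together, *Ece1* has its WT FSK point (8.21) to the right of the other 3, and the KO points of *Tacr1* (6.20 and 6.40) lie left of the WT points.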

How the data were processed

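Total RNA of primary astrocytes was labeled and hybridized by the authors to Affymetrix GeneChip mouse 2.0 ST arrays. The deposited table holds gene-level log2 values, made by the authors with RMA (Affymetrix Expression Console). RMA equalizes the distributions of the arrays and compresses differences at low signal. Software version, genome build and filters were not given in the sources used here. The values were used as deposited.

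Of 41345 probe sets, 23521 name 1 gene, which gives 22180 genes. For each gene the brightest of its probe sets on average was kept. All 10 gene identifiers were found in the RefSeq table of GRCm38.p6. Differences of log2 values were formed between conditions, as the methods compare samples by fold-change. With 1 array per condition no test was made, and the number of arrays limits the precision. The code for the differences and the motif search was run on simulated data with planted changes and motifs. Such a run checks the code and not how reliable a difference between these arrays is. The members and the 13 gene lists (6 of peptide biology and CREB targets, 7 of cell type markers) were chosen with earlier results of these data known. Genes named beside the 10 are the 5 nearest in profile to each gene spanning at least 1 on the log2 scale, and list members that define a role or cell type or differ by at least 1.5-fold. The alternatives were quantile normalization, median centring, averaging the probe sets of a gene, a floor at the median, a filter on dim genes, other fold thresholds and another median. Computations ran in Python 3.11.15 (numpy 2.4.6, pandas 2.3.3), and plots were drawn with matplotlib 3.10.9.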

Additional observations from a re-analysis of the deposited data

Results flagged for a closer look

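For 5 of the 10 genes the FSK response had opposite signs on the WT and the CRTC3 KO (KO) arrays, as for 50.5% of all genes. Subtracting the KO from the WT response gave 0.41 for *Npy*, 0.38 for *Adcyap1* and 0.47 for *Nts*, which were higher with FSK in WT, and -0.21 for *Vip* and -0.035 for *Sst*, which were lower with FSK in WT. Both *Sst* responses were near 0 (-0.019 in WT and 0.016 in KO). With 1 array per condition the difference was not tested, and *Adcyap1*, *Nts* and *Vip* were below the median signal on all arrays.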

How the results depend on the processing

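Quantile normalization and median centring moved no value of the 10 genes by more than 0.073 and 0.017 on the log2 scale and changed no count at the 2-fold threshold or of dim genes. Median centring turned the KO response of *Crh* from -0.0012 to 0.01, so that 7 genes and not 6 were higher with FSK in KO and 6 and not 5 had opposite responses. Averaging the probe sets of a gene gave the same values, as each of the 10 has 1 probe set. With a threshold of 1.5-fold the counts were the same. The shares of all genes at 1.5-fold and 3-fold are not given here, so nothing is read from the counts at these thresholds. At 3-fold, 1 gene (*Penk*) was left as higher with FSK in WT, 1 as lower in KO with FSK, and 0 had a difference between the responses of that size. With signals below the median raised to it, each of these 3 counts was 1, and *Tac1* fell short of 2-fold in all of them. Raising the signals also moved the KO response of *Penk* to 0.15 and its vehicle difference to -0.26, and the median response of the 10 genes in WT from 0.28 to 0.099. The 4 dim genes were the same in number with the median of all probe sets (5.49). Depth is no measure here: signal over background limits *Tac1*, the KO vehicle signal of *Penk*, the KO signals of *Sst* and the 4 dim genes. The single array per condition limits all. No paired analysis was possible because each condition has a single array.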

Other observations

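Beyond the 10 genes, 40 other neuropeptide and peptide hormone genes were measured. Of these 16 reached the median signal and 24 were dim, where 45.9% of all genes were dim. None of the 40 was 2-fold different in any comparison, where 0.0271% to 0.825% of all genes were, depending on comparison and direction. With FSK in WT 20 were higher (49.6% of all genes) and 20 lower, and their median response was -0.0004 in WT and 0.01 in KO. *Cartpt*, the precursor of cocaine- and amphetamine-regulated transcript peptides, lay at 6.08 and 6.48 in WT against 5.88 and 5.69 in KO, on the log2 scale, with vehicle and FSK. Its difference between KO and WT was -0.79 with FSK and -0.21 with vehicle. *Trh*, the thyrotropin-releasing hormone gene, had differences of -0.45 with vehicle and -0.63 with FSK, also lower in KO. Of the 40 genes, 26 were lower in KO and 14 higher with vehicle, where 48.2% of all genes were lower. With FSK 24 were lower and 16 higher, where 50% of all genes were lower. Among the dim genes, *Pnoc* differed by 0.65 with FSK, higher in KO, and *Ucn2* by -0.80 with vehicle. *Nppb*, which encodes a natriuretic peptide, was at 5.92 on the WT vehicle array and between 5.23 and 5.53 on the other 3. *Nucb2*, the nesfatin precursor gene, was the same with and without FSK to within 0.08 and lower in KO, with differences of -0.44 with vehicle and -0.49 with FSK.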
